A study of Mus musculus with 6 samples.

Results

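The genes described here build cilia. Genes were taken by name: every gene whose single symbol in the array annotation begins with Tekt, Ift, Bbs, Dnah, Dnaic, Dnai, Dnali, Tctn or Rsph followed by a number was included, which gave 49 of the 18193 genes with a probe set of their own. They carried 71 probe sets, and 1 per gene was selected on measured values, as the one with the highest mean signal over all 6 arrays. Of the 49 genes, 25 (Ift, Bbs and Tctn) belong to the machinery of the primary cilium and 24 (Tekt, Dnah, Dnaic, Dnali and Rsph) to the moving axoneme.

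A cilium is a thin protrusion of the cell surface built on a core of microtubules. Most cell types, among them the progenitors of adipocytes, can carry a single immotile primary cilium that receives signals such as Hedgehog, and this cilium is taken down when cells divide or differentiate into fat cells. It is built by intraflagellar transport (IFT), in which trains of IFT-B and IFT-A proteins are moved outward by kinesin and inward by dynein-2. IFT serves motile cilia as well, so the primary class is not specific to immotile ones. Membrane proteins are carried by the BBSome and admitted at the transition zone, where the tectonics sit. Motile cilia, found on multiciliated epithelia and sperm, add axonemal dynein arms, radial spokes and tektins, filaments inside the microtubules, and fat tissue is not known for them.

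Whole epididymal white fat was profiled on Affymetrix arrays from 3 CNOT3KO mice and 3 wild-type (WT) mice, all C57BL/6 and 8 weeks old, with 1 array per mouse. In CNOT3KO mice Cnot3, a subunit of the CCR4-NOT complex that shortens mRNA tails, was deleted by Cre recombinase under the Adiponectin promoter, which acts in adipocytes, so that other cells of the pad keep the gene. The sources used here do not say whether the control mice carried a floxed allele. The values are MAS5 signals on a linear scale, with array medians between 82.1 and 92.9, and the number of arrays limits their precision. Cnot3 itself read 194, 229 and 179 in CNOT3KO mice, against 305, 293 and 305 in WT mice (log2 difference -0.54, SE 0.14, limma adjusted p = 0.0131). The adipocyte gene Adipoq read between 24292 and 32021 in CNOT3KO fat and between 21950 and 34975 in WT fat.

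Differences are CNOT3KO minus WT on the scale of log2(signal + 22.5), tested with limma over 12769 genes with Benjamini-Hochberg adjustment, and a gene was called where the adjusted p was under 0.05. Fold values are on the same scale. Genes with a mean signal under 51.6 were too dim to be tested. In this comparison 40.1% of all tested genes were called, 23.2% as higher and 16.9% as lower, so a call is common here. Counts of calls for any family or list are to be read beside these shares. All 25 primary cilium genes were tested: 7 rose, 2 fell and 16 were not called, a share of 36.0% called that lies near the background. Their median log2 difference was 0.17, beside 0.02 for all tested genes. Of the 24 motile cilium genes 5 were bright enough to test, and of these 1 rose (Tekt1) and 1 fell (Dnah11). Tekt1 was tested only because its CNOT3KO arrays raised the mean, so its rise is not independent of its being tested. The median over all 24 was -0.08, beside 0.0066 over all 18193 genes. Whether the classes differ from each other was not tested. The groups did not overlap in 14 of the 25 primary genes, or 56.0%, beside 51.7% of all tested genes. When the median of all tested genes was set to the same level on every array, the calls over all genes split into 2318 higher and 2800 lower, against 2959 and 2156 as deposited, and the primary cilium genes into 5 higher and 2 lower. In bulk tissue, fewer cells of a type and less RNA per cell cannot be told apart.

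**Figure D1:**
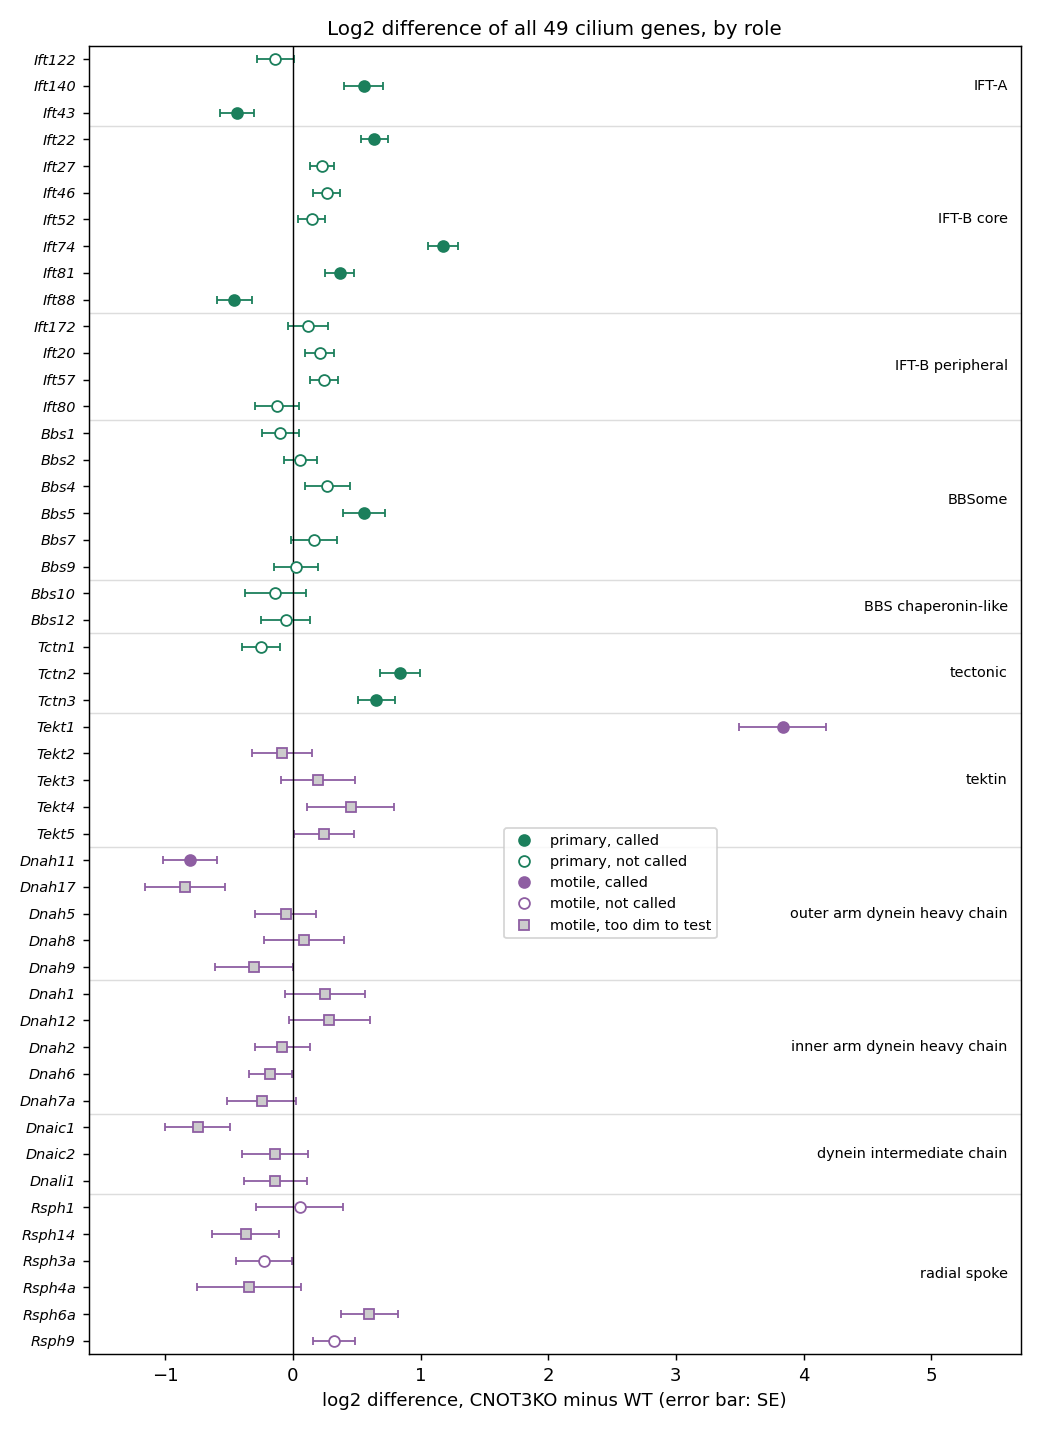
Log2 difference between CNOT3KO and WT (horizontal axis, with SE) of all 49 cilium genes, grouped by role, with the light intermediate chain Dnali1 placed among the intermediate chains. Filled circles were called, open circles were not, and grey squares were too dim to test. Tekt1, at 3.84, stands to the right of the other 48 genes, which lie between -0.85 and 1.18.

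Tekt1, a tektin of ciliary and flagellar microtubules, changed more than any other gene of the set. It read 718, 795 and 658 in CNOT3KO mice, against 55.9, 4.50 and 44.0 in WT mice. Every CNOT3KO array lay far above every WT array. The means were 724 ± 68.3 in CNOT3KO and 34.8 ± 26.9 in WT (SD, n = 3 each), and the log2 difference was 3.84 (SE 0.34, limma adjusted p = 4.97e-05), or 14.3-fold. The size depends on the offset because the WT signal is so low: the log2 difference was 4.90 with an offset of 1 and 2.74 with the median of all values. Tekt1 has 1 probe set on the array, and its mean passed the filter through the CNOT3KO arrays, the WT mean being below it. Its rise is therefore not independent of its being tested. This rise was already known when the gene set was proposed, so it is a description here. The other 4 tektins were dim in both groups. Tekt2, which stood just outside the filter with a mean of 51.1, read 33.9, 67.3 and 46.8 in CNOT3KO mice, against 41.9, 59.1 and 57.5 in WT mice. Tekt3, Tekt4 and Tekt5 read between 1.71 and 54.8 on all 6 arrays, the highest being Tekt4 in CNOT3KO mouse 2, and had no test.

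Dnah11, a heavy chain of the outer dynein arm, fell. It read 108, 65.3 and 68.7 in CNOT3KO fat, against 158, 177 and 133 in WT fat, with no overlap (log2 difference -0.81, SE 0.21, limma adjusted p = 0.0135). Its call was lost without WT mouse 2 (-0.72). The other 4 outer arm heavy chains (Dnah5, Dnah8, Dnah9 and Dnah17) and the 5 inner arm heavy chains (Dnah1, Dnah2, Dnah6, Dnah7a and Dnah12) were all below the filter. The intermediate chains Dnaic1 and Dnaic2 and the light intermediate chain Dnali1 were also below the filter. Dnah9 lay closest to it, with a mean of 50.2. Dnah17 had the lowest log2 difference of the set, -0.85, from 6.23, 17.2 and 34.2 in CNOT3KO mice, against 51.1, 30.0 and 74.9 in WT mice, and the groups overlapped. Dnaic1, an outer arm intermediate chain, read 30.7, 6.75 and 24.9 in CNOT3KO mice, against 53.7, 48.1 and 42.1 in WT mice. The CNOT3KO values of this Dnaic1 probe set, which is of a type prone to cross-hybridise, were all lower, but it was too dim to be tested. A second Dnaic1 probe set, with a mean of 30.2 beside 34.4, did not show this. It read 26.6, 28.1 and 35.4 in CNOT3KO mice, against 9.44, 44.8 and 36.7 in WT mice (log2 difference 0.06).

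Of the radial spoke genes, Rsph1, Rsph3a and Rsph9 were tested and none was called by limma, nor had any an unadjusted p under 0.05. Rsph9, a spoke head protein, read 169, 193 and 231 in CNOT3KO fat, against 150, 161 and 147 in WT fat (log2 difference 0.32, SE 0.16), and every CNOT3KO array was above every WT array. Rsph3a, just inside the filter with a mean of 75.1, had a log2 difference of -0.23 and overlapping groups. Rsph1 read 106, 58.0 and 60.9 in CNOT3KO mice, against 132, 52.7 and 44.1 in WT mice, so that mouse 1 was the highest of each group. Rsph4a, Rsph6a and Rsph14 were below the filter. In all, 19 motile cilium genes went untested, with single values between 1.51 and 79.0. With no filter, limma called 0 of these 19, and 3 had an unadjusted p under 0.05.

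**Figure D2:**
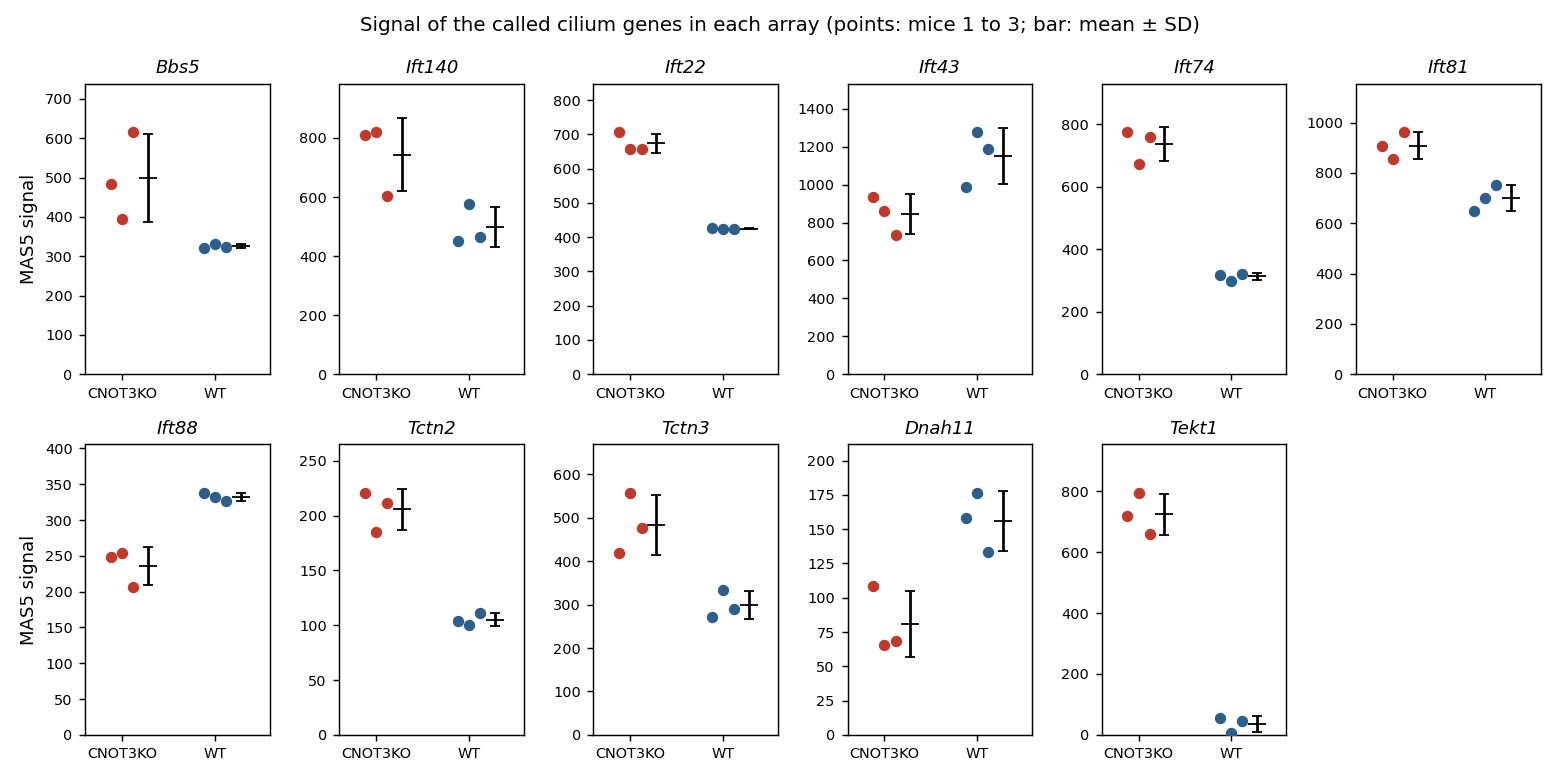
MAS5 signal (vertical axes, from 0) of the 11 called cilium genes on each array, CNOT3KO left and WT right; points are mice and the bar gives mean ± SD (n = 3). In each of the 11 genes the CNOT3KO points lie wholly above or wholly below the WT points.

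Intraflagellar transport genes held 4 rises and 2 falls among 14, a share of 42.9% called beside 40.1% of all tested genes. The IFT-B core accounted for 3 of the rises. Ift74, which with its partner Ift81 forms the part of the IFT-B train that binds tubulin, read 775, 674 and 760 in CNOT3KO mice, against 319, 299 and 322 in WT mice. The gap between the groups was many times the spread within either (log2 difference 1.18, SE 0.12, limma adjusted p = 8.94e-05), a 2.26-fold rise. Ift22, a small GTPase-like subunit bound to that pair, read 707, 659 and 657 in CNOT3KO mice, against 426, 424 and 424 in WT mice (log2 difference 0.64, SE 0.11, limma adjusted p = 0.00148). Both kept their call under each of the 19 alternatives tried. Ift81 itself read 906, 856 and 963 in CNOT3KO mice, against 649, 701 and 753 in WT mice (log2 difference 0.37, SE 0.11, limma adjusted p = 0.0264). The call of Ift81 was lost with median centring (0.27), with the mean of its probe sets (0.23), with its probe set that is not prone to cross-hybridise (0.34), without CNOT3KO mouse 1 (0.37) or 3 (0.32), and without WT mouse 1 (0.31) or 2 (0.37).

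Ift88, another IFT-B core subunit whose loss in mice prevents cilia from forming, went the other way. It read 249, 254 and 206 in CNOT3KO mice, against 338, 332 and 326 in WT mice, with every CNOT3KO array lower (log2 difference -0.46, SE 0.14, limma adjusted p = 0.0230). This call was lost without CNOT3KO mouse 1 (-0.50) or 3 (-0.37) and without WT mouse 1 (-0.45) or 2 (-0.46). The other 3 core genes with an Ift symbol were not called although their groups did not overlap. Ift46 read 1227, 1148 and 1117 in CNOT3KO mice, against 933, 944 and 1020 in WT mice (log2 difference 0.26, SE 0.10). Ift27, a Rab-like GTPase that helps the BBSome leave the cilium, had a log2 difference of 0.23, and Ift52, a scaffold of the core, 0.15. A dimmer Ift27 probe set read 0.35 and was called higher when every probe set was tested singly, while another read -0.19. Among the 4 peripheral IFT-B genes with an Ift symbol limma called none, and only Ift57 (log2 difference 0.24) had an unadjusted p under 0.05. Ift20, which also works at the Golgi, read 0.21, Ift172 0.12 and Ift80 -0.13 on the log2 scale. Of the IFT-B subunits with other symbols, Cluap1 (0.53) and Hspb11 (0.49) were called higher, while Ttc26, Ttc30a1, Ttc30b and Traf3ip1 were not called.

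The 3 IFT-A genes with an Ift symbol did not move together. Ift140, a core IFT-A subunit, read 809, 820 and 602 in CNOT3KO mice, against 452, 576 and 464 in WT mice, all CNOT3KO arrays being higher (log2 difference 0.55, SE 0.15, limma adjusted p = 0.0177). Its call was lost without CNOT3KO mouse 1 (0.49) or 2 (0.48) and without WT mouse 1 (0.49) or 3 (0.51). Ift43, a smaller subunit of the same complex, fell, with 937, 864 and 732 in CNOT3KO mice, against 989, 1278 and 1191 in WT mice (log2 difference -0.44, SE 0.14, limma adjusted p = 0.0287). Ift43 lost its call without CNOT3KO mouse 2 (-0.46) or 3 (-0.34) and without WT mouse 2 (-0.36) or 3 (-0.41). Ift122 had overlapping groups and a log2 difference of -0.14. The IFT-A subunits with other symbols, Wdr19, Wdr35 and Ttc21b, had log2 differences of 0.33, 0.10 and 0.31 and were not called.

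Of the BBS genes only Bbs5 was called among 8 tested, a share of 12.5% beside 40.1% of all tested genes. Bbs5, a BBSome subunit that binds membrane lipids, read 485, 394 and 616 in CNOT3KO mice, against 322, 332 and 324 in WT mice (log2 difference 0.56, SE 0.16, limma adjusted p = 0.0211). The WT arrays lay close together and the CNOT3KO arrays were spread above them. The call was lost with median centring (0.46), without CNOT3KO mouse 1 (0.56) or 3 (0.40), and without WT mouse 1 (0.55) or 2 (0.57). Bbs1, Bbs2, Bbs4, Bbs7 and Bbs9, also BBSome subunits, had log2 differences between -0.10 and 0.27. Ttc8, a BBSome subunit that goes by another symbol, fell, with 793, 675 and 810 in CNOT3KO mice, against 1131, 1148 and 1100 in WT mice (log2 difference -0.56, SE 0.11, limma adjusted p = 0.0035). Every CNOT3KO value of Ttc8 was lower, and its call was kept under all 19 alternatives. The chaperonin-like genes Bbs10 and Bbs12, which help to assemble the complex, read -0.14 and -0.06. The groups of the 7 uncalled Bbs genes overlapped, whereas groups were apart in 51.7% of all tested genes.

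Among the tectonics, which hold the gate at the base of the cilium, 2 of 3 rose, beside 23.2% of all tested genes called higher. Tctn2 read 221, 185 and 212 in CNOT3KO mice, against 104.0, 100.1 and 111 in WT mice (log2 difference 0.84, SE 0.16, limma adjusted p = 0.00252). Tctn3 read 419, 557 and 475 in CNOT3KO mice, against 272, 334 and 291 in WT mice (log2 difference 0.65, SE 0.15, limma adjusted p = 0.00622). The groups were apart in both genes, and both kept their call under every alternative in which they were tested. Tctn1 read 183, 165 and 168 in CNOT3KO mice, against 194, 235 and 198 in WT mice. All its CNOT3KO values were lower, and the log2 difference of -0.25 (SE 0.15) was not called.

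Many ciliary genes carry an X-box, the site bound by RFX transcription factors, near their start. The X-box was searched as GTNNCC and GNAAC separated by NNN, on both strands, in RefSeq promoter windows (GRCm38.p6) of 250 bases before to 50 after the start. Windows were found for 44 of the 49 genes. A match was present in 7 of 22 primary cilium genes (31.8%) and 2 of 22 motile ones (9.09%), beside 673 of 27025 genes in the whole table (2.49%). Among the cilium genes that were called higher 2 of 7 held a match, Ift22 and Tctn2, against 0 of 3 called lower and 5 of 16 tested and not called. The matches of all 9 genes are shown so that called and uncalled genes can be compared; the other 35 genes with a window held none. Each is read on the strand that fits the pattern, with its fixed letters in capitals.
Bbs1: GTcgCCttgGcAAC
Bbs4: GTcgCCcggGaAAC
Bbs7: GTtgCCttgGaAAC
Dnah17: GTcaCCagcGcAAC
Ift22, first match: GTagCCcagGaAAC
Ift22, second match: GTcgCCgtgGaAAC
Ift57: GTcaCCacgGcAAC
Tctn1: GTtgCCcggGcAAC
Tctn2: GTagCCatgGtAAC
Tekt4, first match: GTgtCCtggGaAAC
Tekt4, second match: GTtgCCtaaGgAAC

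A shorter piece of the X-box, GTTGCCA, was searched on both strands too. It overlaps the longer pattern at some sites, as in Bbs1. It was present in 6 of the 44 genes (13.6%), beside 5.03% of all genes. Among them were the called Tekt1, Tctn3 and Ift88 and the uncalled Bbs1 and Ift27. By call, it was held by 3 of 7 genes called higher, 1 of 3 called lower and 2 of 16 tested and not called. The windows of Ift22 and Tctn2, the called genes with a full match, and of Tekt1, the gene with the largest change, are given with their matches in capitals. Tekt1 has more than 1 window in the table, and the one with a match is shown. Its middle lies 12 bases before the start, and a match is a description of these letters only.
Ift22, chr5:136907900-136908199, plus strand: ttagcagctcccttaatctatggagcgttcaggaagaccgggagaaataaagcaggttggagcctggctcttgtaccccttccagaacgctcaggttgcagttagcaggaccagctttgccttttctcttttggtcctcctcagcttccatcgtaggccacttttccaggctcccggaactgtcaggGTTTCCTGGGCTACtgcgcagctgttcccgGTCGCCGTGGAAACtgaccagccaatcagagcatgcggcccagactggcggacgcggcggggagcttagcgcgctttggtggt
Tctn2, chr5:124598499-124598798, plus strand: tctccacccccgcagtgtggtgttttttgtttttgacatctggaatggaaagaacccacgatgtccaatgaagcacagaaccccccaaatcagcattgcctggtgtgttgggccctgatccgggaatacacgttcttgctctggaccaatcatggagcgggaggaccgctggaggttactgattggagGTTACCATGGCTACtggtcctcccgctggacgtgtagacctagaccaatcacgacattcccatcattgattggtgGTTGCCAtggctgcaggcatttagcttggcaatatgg
Tekt1, chr11:72361833-72362132, minus strand: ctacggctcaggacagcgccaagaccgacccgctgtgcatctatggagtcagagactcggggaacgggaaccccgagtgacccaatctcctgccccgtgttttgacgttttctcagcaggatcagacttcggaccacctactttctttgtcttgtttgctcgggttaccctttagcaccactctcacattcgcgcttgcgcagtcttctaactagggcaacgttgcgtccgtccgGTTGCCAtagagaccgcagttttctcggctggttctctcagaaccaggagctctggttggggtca

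Part of the transport machinery goes by other symbols. Of 24 tested genes for further IFT and BBS subunits and their motors 7 rose and 2 fell (median log2 difference 0.18). Of all tested genes 23.2% were called higher and 16.9% lower. Kif3a, a motor subunit of the kinesin that moves IFT trains outward, read 1091, 907 and 1053 in CNOT3KO mice, against 426, 454 and 581 in WT mice (log2 difference 1.04, SE 0.14, limma adjusted p = 0.000462). Wdr60, an intermediate chain of dynein-2, the return motor, read 441, 450 and 462 in CNOT3KO mice, against 210, 240 and 250 in WT mice (log2 difference 0.89). Dync2li1, its light intermediate chain, read 867, 717 and 946 in CNOT3KO mice, against 514, 361 and 497 in WT mice (log2 difference 0.86). In these 3 genes each CNOT3KO array was above each WT array. Kif17, another kinesin of the cilium, went the other way, with 57.7, 102 and 85.3 in CNOT3KO mice, against 127, 131 and 169 in WT mice (log2 difference -0.68, SE 0.22, limma adjusted p = 0.0318). Every CNOT3KO value of Kif17 was lower. Its call was lost under 7 of 18 alternatives: no filter (-0.68), quantile normalization (-0.58), the mean of its probe sets (-0.15), and without CNOT3KO mouse 1 (-0.50) or 3 (-0.71) or WT mouse 2 (-0.73) or 3 (-0.56). Dync2h1, the heavy chain of dynein-2, had a log2 difference of -0.26 and was not called.

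The gate and the base of the primary cilium were covered by further genes. Of 16 transition zone genes 3 rose and 1 fell, beside 23.2% and 16.9% of all tested genes. Tmem107 had a log2 difference of 0.69, Nphp4 of 0.61 and Rpgr of -0.67. Tmem107 lost its call with the mean of its probe sets (0.47). The Nphp4 call was lost under 8 of 18 alternatives: no filter (0.61), median centring (0.52), the mean of its probe sets (0.28), the mouse number as a block (0.61), and without CNOT3KO mouse 1 (0.55) or 3 (0.60) or WT mouse 1 (0.58) or 3 (0.54). That of Rpgr was lost under 7 of 19: no filter (-0.67), quantile normalization (-0.60), no variance trend (-0.67), and without CNOT3KO mouse 2 (-0.75) or 3 (-0.45) or WT mouse 1 (-0.58) or 2 (-0.57). Of 24 ciliary membrane and basal body genes 4 rose and 1 fell, beside the same 23.2% and 16.9%. Pde6d, which carries lipid-modified proteins to the cilium, read 0.86, Cby1, a basal body protein, 0.66 and Pkd1, the polycystin of kidney cilia, -0.67 on the log2 scale.

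Of 16 other motile cilium genes 3 rose and 1 fell, beside 23.2% and 16.9% of all tested genes. Another 26 of the 42 measured were too dim to test. Dnajb13, a co-chaperone of the radial spoke, read 949, 819 and 916 in CNOT3KO mice, against 184, 182 and 221 in WT mice (log2 difference 2.07, SE 0.13, limma adjusted p = 1.08e-05). All CNOT3KO arrays were more than 3 times the highest WT array. Ropn1l, another spoke protein, had a log2 difference of 0.67. Its call was lost under 6 of 19 alternatives: no filter (0.67), median centring (0.57), no variance trend (0.67), and without CNOT3KO mouse 1 (0.62) or 3 (0.53) or WT mouse 2 (0.45). Dnal1, an axonemal dynein light chain, fell with a log2 difference of -0.56, but not with the mean of its probe sets (-0.33). None of the 8 tested transcription factors of ciliogenesis was called by limma, and 0 had an unadjusted p under 0.05. Rfx2 had a log2 difference of -0.33 and Rfx3 of 0.00. Foxj1, the master factor of motile cilia, was below the filter, with 59.6, 4.15 and 6.70 in CNOT3KO mice, against 84.4, 40.3 and 55.6 in WT mice.

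**Figure D3:**
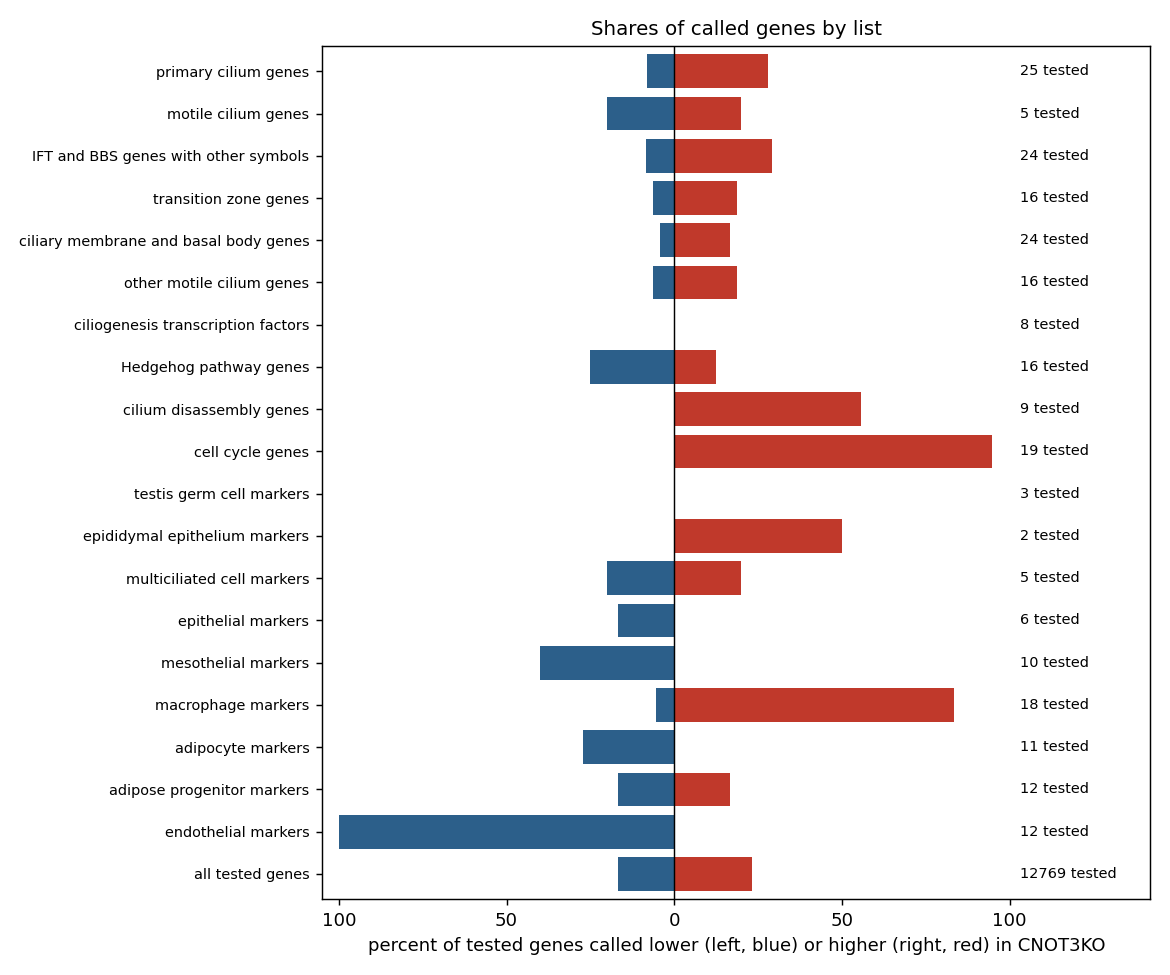
Percent of the tested genes of each list that were called lower (left) or higher (right) in CNOT3KO, with the number tested at the right edge. The bars of the primary cilium genes and of all 12769 tested genes extend both ways, while those of cell cycle, macrophage and endothelial genes reach far to one side.

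The Hedgehog pathway, which signals through the primary cilium, held 2 rises and 4 falls among 16 tested genes, and its median log2 difference was -0.08. Of all tested genes 23.2% were called higher and 16.9% lower. Smo, the transducer that enters the cilium, read 523, 563 and 444 in CNOT3KO mice, against 951, 1166 and 1016 in WT mice, every CNOT3KO array being lower (log2 difference -1.003, SE 0.13, limma adjusted p = 0.000356). Gli2, its transcription factor, read 109, 160 and 93.7 in CNOT3KO mice, against 372, 208 and 243 in WT mice (log2 difference -1.04). Evc2, a protein of the ciliary base that takes part in the same signal, rose by a log2 difference of 0.94. Sufu was also called lower (log2 difference -0.62), and Boc was called higher (0.48) although its groups overlapped. The target genes Ptch1 and Gli1 read -0.40 and -0.40, the first called lower and the second, whose groups overlapped, not called. Ptch1 lost its call under 6 of 19 alternatives, with the mean of its probe sets (-0.22) and without CNOT3KO mouse 1 (-0.32) or 2 (-0.37) or any 1 of the WT mice (-0.42 to -0.37). Of 9 tested genes for taking the cilium down 5 rose and 0 fell, among them Aurka (1.45), Nek2 (1.16) and Plk4 (1.05), which also act in mitosis. The WT means of Aurka (44.9) and of Plk1 (47.4), which was not called, were below the filter. Both genes were tested only because their CNOT3KO arrays raised the mean, so the rise of Aurka is not independent of its being tested.

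Markers of other cells moved in the same arrays. Cell cycle genes rose in 18 of 19 cases, beside 23.2% of all tested genes called higher and 16.9% called lower. Their summed signal lay between 13698 and 15650 in CNOT3KO fat, against 6289 to 7229 in WT fat. Among the rises, Bub1, Kif11, Tpx2 and Cenpe had WT means below the filter (16.1, 39.6, 47.7 and 49.4). These genes were tested only because their CNOT3KO arrays raised the mean, so their rises are not independent of their being tested. Macrophage markers rose in 15 of 18 and fell in 1, with sums between 70648 and 97733 in CNOT3KO fat, against 32438 to 41913 in WT fat. All 12 endothelial markers fell, with sums between 7250 and 8216 in CNOT3KO fat, against 20334 to 20699 in WT fat. Of these, Tie1 had a CNOT3KO mean below the filter (47.0) and was tested only because its WT arrays raised the mean. Adipose progenitor markers, whose cells can carry a primary cilium, rose in 2 and fell in 2 of 12 cases, the rises being Lum (1.55) and Pdgfra (0.83) and the falls Pi16 (-0.71) and F3 (-0.38). Pdgfra lost its call without CNOT3KO mouse 1 (0.82) or WT mouse 1 (0.64). F3 lost it without CNOT3KO mouse 1 (-0.32) or WT mouse 1 (-0.37) or 3 (-0.33). Pi16 lost it under 8 of 19 alternatives: no filter (-0.71), the mean of its probe sets (-0.38), no variance trend (-0.71), and without CNOT3KO mouse 1 (-0.70) or 3 (-0.43) or WT mouse 1 (-0.69), 2 (-0.71) or 3 (-0.74). Adipocyte markers fell in 3 of 11 cases (Lep, Cidec and Plin4), mesothelial ones in 4 of 10 and epithelial ones in 1 of 6, and none of these lists held a rise. The part of these shifts in the differences of cilium genes was not tested.

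Cells with motile cilia or flagella lie near this fat pad, so their markers were read too. Of 23 testis germ cell markers 20 were below the filter and none of the 3 tested was called by limma or had an unadjusted p under 0.05. The sperm protamine Prm1 read 8.54, 15.7 and 5.79 in CNOT3KO mice, against 8.66, 6.24 and 7.61 in WT mice, and no value of Tnp2 exceeded 6.99. The groups overlapped in 22 of the 23 markers. The exception was Tssk6, a testis kinase, which was too dim to test and read 54.9, 22.8 and 14.0 in CNOT3KO mice, against 5.57, 9.23 and 3.81 in WT mice (log2 difference 0.82). The sum of the 23 lay between 1595 and 1952 in CNOT3KO fat and between 1432 and 2341 in WT fat, of which Sycp3 alone made up the larger part. Of 12 measured markers of epididymal epithelium 10 were below the filter and 1 of 2 tested, Rnase10, was called higher (0.72), and their sum lay between 341 and 374 in CNOT3KO fat, against 281 to 386 in WT fat. Of 15 measured markers of multiciliated cells 5 were tested: Mlf1 rose (1.36), Tppp3 was called lower (-0.60) and the other 3 were not called. Their sum lay between 800 and 1781 in CNOT3KO fat and between 1120 and 1739 in WT fat, so the groups overlapped. The Tppp3 call was lost under 5 of 19 alternatives: no filter (-0.60), no variance trend (-0.60), and without any 1 of the WT mice (-0.66 to -0.56).

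**Figure D4:**
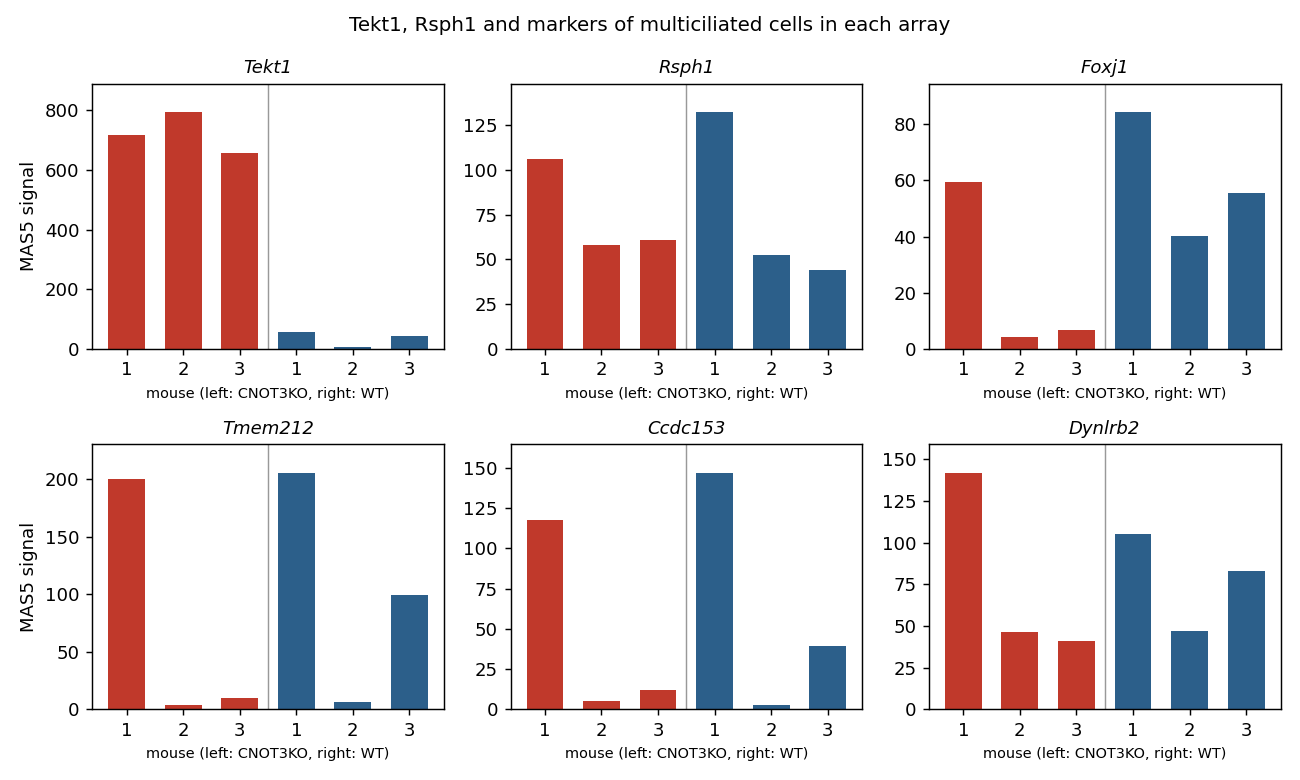
MAS5 signal (vertical axes, from 0) of Tekt1, Rsph1 and 4 markers of multiciliated cells on each array, CNOT3KO on the left and WT on the right of each panel; bars are single mice. Tekt1 is high in all 3 CNOT3KO mice, while the other 5 genes, picked after their values were seen, are highest in mouse 1 of each group, as are 7 of all 15 measured markers of such cells.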

How the data were processed

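RNA from whole epididymal fat of 6 mice was labelled with biotin from 500 ng, per the labels' protocols. The authors deposited a linear signal intensity for each probe set of each array, and the submitters' processing notes name MAS5 for this step. The sources used here give no settings or scaling target. No detection calls were used. Sample titles gave the groups and number the mice.

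Of 45037 probe sets, 34945 named a single gene, 932 several and 9160 none here. Gene symbols are those of the array annotation. Another 2 probe sets name a gene of these families together with a relative and were not analysed here. The highest-signal probe set stood for each gene. Genes whose probe set had a mean below the 40th percentile (51.6) were not tested, which left 12769. An offset of 22.5, which is the 25th percentile over the arrays, was added before log2. Genes were fitted in limma 3.58.1 under R 4.3.3 (lmFit, then eBayes allowing a variance trend). The tests were two-sided, with Benjamini-Hochberg adjustment over all tested genes and a threshold of 0.05. It was tested on simulated data first. Tables and plots used Python 3.11.15, pandas 2.3.3 and matplotlib 3.10.9.

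The members and lists were chosen with earlier results of these data known, Tekt1 among them. Named genes are all called members, the brightest of each family, those beside the filter, up to 3 called genes of each list with the largest change, Cnot3, Foxj1, Rfx2 and Rfx3; others were named after their values were seen. Mouse numbers are shared between groups but not tied to litters, and the correlations of same-numbered mice were 0.074, 0.109 and 0.043, so no block was used. Alternatives covered offset, filter, scaling, probe set choice, variance model, array weights, the block and leaving out each array. Lists are described by counts and medians, with no test.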

Additional observations from a re-analysis of the deposited data

How the results depend on the processing

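The 6 summary values (counts of called primary and motile cilium genes in each direction, and the median log2 difference of the tested genes of each class) and every tested member were computed under 20 settings or fewer, and no called gene changed sign. The count of 7 primary cilium genes called higher was 4 to 6 when single arrays were left out, and that of 2 called lower was 0 to 1, which is 0 without CNOT3KO mouse 3 or WT mouse 2. Of the motile genes the 1 called higher, Tekt1, was called in every setting, and the 1 called lower, Dnah11, was absent with the filter at the 60th percentile, where it was not tested (0), and not called without WT mouse 2 (0 to 1 over all left-out arrays). The median of the tested motile genes, 0.05 over 5 genes, was -0.084 with no filter, over 24 genes, 2.08 with the 60th percentile, over 2 genes, and -0.18 to 0.31 with an array left out. With the mouse number as a replicate block the counts were 7 and 2 for primary and 1 and 1 for motile genes, and of the called genes recomputed under it Nphp4 (0.61) and Smtnl2 (0.85) lost their calls. Ift74, Ift22, Tctn2, Tctn3 and Tekt1 kept their calls throughout. Bbs5, Ift140, Ift43, Ift81 and Ift88 each lost theirs when a single array was left out, which held for 4 of the 6 arrays. Bbs5 and Ift81 also lost theirs with median centring, and Ift81 with both other choices of probe set. Calls were gained for Ift20, Ift27 and Ift46 with array weights (0.29, 0.21 and 0.32), and for Ift27 also with its probe set that is less prone to cross-hybridise (0.35). MAS5 signals near the lower end are noisy on a log scale, which limits what can be said of the 19 untested motile genes.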

Other observations

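The genes next to Tekt1 were read after its values were seen. In the gene order of RefSeq GRCm38.p6 Tekt1 lies between Fbxo39, which has no probe set of its own in the table used, and Smtnl2. Smtnl2, a smoothelin-like gene, read 288, 340 and 226 in CNOT3KO mice, against 245, 83.9 and 144 in WT mice (log2 difference 0.85, limma adjusted p = 0.0460, groups overlapping). Xaf1, an interferon-induced gene and the next but 1 on the other side, read 1941, 1595 and 1794 in CNOT3KO mice, against 1208, 1054 and 1164 in WT mice (log2 difference 0.63). The Smtnl2 call was lost under 8 of 19 alternatives, with values between 0.53 and 0.85, and that of Xaf1 with the mean of its probe sets (0.27). Ggt6, next after Smtnl2, had a log2 difference of 0.34 and was not called. Dnajb13 lies beside Ucp2, which has no probe set of its own in the table used, and Coa4, which read -0.22 on the log2 scale and was not called. Mrpl48, next after Coa4, was called higher (log2 difference 0.42, limma adjusted p = 0.0320), with groups apart. Ucp3, on the far side of Ucp2, read 0.49 and was not called (limma adjusted p = 0.0525).

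Some genes of multiciliated cells varied between mice of the same group, a pattern picked after the values were seen. Tmem212, a marker of such cells, read 200.2, 3.59 and 10.2 in CNOT3KO mice, against 205.5, 6.83 and 99.6 in WT mice. Ccdc153 read 118, 4.93 and 12.1 in CNOT3KO mice, against 147, 2.73 and 39.5 in WT mice, and Dynlrb2, a dynein light chain, 141.8, 46.5 and 40.9 in CNOT3KO mice, against 105, 47.1 and 83.1 in WT mice. Mouse 1 was the highest of its group in each, as for Rsph1 and Foxj1. Of the 15 measured markers of multiciliated cells, 7 had mouse 1 highest in both groups and 8 did not, among them Tppp3, Fam183b and Pifo. The epithelial gene Cdh1 was also highest in mouse 1 of each group, with 57.5, 7.21 and 2.77 in CNOT3KO mice, against 88.0, 1 and 29.3 in WT mice. Of the 10 measured epithelial markers, 3 (Cdh1, Krt8 and Elf3) had mouse 1 highest in both groups and 7 did not.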
